A study of Danio rerio with 50 samples.

Results

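The 3 roundabout receptor genes robo1, robo2 and robo3 were followed across single olfactory sensory neurons (OSNs) and small pools of OSNs of the zebrafish larva. The members were the rows with these names, 3 of the 29033 genes in each of 2 count tables. Robo receptors are transmembrane proteins of the immunoglobulin superfamily that sit on growing axons and bind secreted Slit proteins. Binding usually repels the growth cone, and in this way the axon avoids territory where Slit is made. Zebrafish robo2 is the gene mutated in astray fish, whose retinal axons stray on their way to the tectum. In the mouse, Slits and Robo2 take part in the dorsal to ventral ordering of OSN axons in the olfactory bulb. Mammalian Robo3 differs from its relatives in that it binds Slits only weakly but does bind the secreted protein NELL2. In commissural neurons it lowers the response to Slit.

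Single cells came from dissociated olfactory pits of Tu/TLF larvae at 48 hours post fertilization that carried zOMP:RFP, a transgene in which the promoter of olfactory marker protein drives a red fluorescent protein. Red cells pooled from many embryos were sorted and captured on a microfluidic chip, and 47 cells were analysed, 33 with ERCC spike-in RNA and 14 with Fluidigm spike-in RNA. The 3 bulk libraries, also with ERCC spike-ins, each held about 1000 sorted cells positive for both Citrine and RFP. They came from larvae of the same age that carried or111-7:IRES:GAL4, UAS:Citrine and zOMP:RFP. In the first of these transgenes an enhancer near the or111 cluster and the or111-7 promoter drive or111-7 and GAL4. Per the study's methods these cells project to the central zone (CZ) of the bulb. All cells and pools thus came from zOMP:RFP fish with no mutation, and embryos were pooled before sorting, so that no cell can be traced to 1 embryo.

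The labels give no class of neuron, so classes were rebuilt from genes other than the robo genes. A cell whose highest odorant receptor (OR) gene reached 10 CPM (counts per 1000000 counts) was placed in the clade of that OR. Zebrafish ORs of clades A, B and C are 3 groups of related receptor genes, and the study asked whether axon guidance receptors go with the clade of the OR a neuron has chosen. Among the other cells, those with at least 20 CPM of gng8 and gap43, markers of immature OSNs, were called immature, and the rest mature without OR. This gave 10 cells of clade C, 9 of clade A, 10 of clade B, 13 mature cells without OR and 5 immature cells. The classes were far apart on the genes used, since the lowest predominant OR was at 55.5 CPM and the highest OR of any other cell at 4.72 CPM. Every class had cells of both spike-in sets, but 11 of the 13 cells without OR and 4 of the 5 immature cells were in the ERCC set. Total counts were 6951519 to 30192554 per cell and 2651985 to 6250589 per bulk library. Bulk library 1 was the shallowest, with 11377 genes that had a count, against 16881 and 18457 in libraries 2 and 3. At least 1 of 6 markers of ciliated OSNs, among them ompb, gng13b and cnga4, reached 100 counts in 44 of the 47 cells, and each of the 6 did so in at least 1 bulk library. Endothelial markers (kdrl, cdh5, pecam1, tie1) reached 100 counts in no cell and summed to at most 0.496 CPM.

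robo2 was the most widely detected of the 3 receptors. It reached 100 counts, the minimum the study used for detection, in 21 of the 47 cells (44.7%, 95% exact Clopper-Pearson interval 30.2 to 59.9%). robo3 did so in 9 cells (19.1%, 9.15 to 33.3%). robo1 reached it in 0 of 47 cells, which allows a share of cells of up to 6.38%. Such limits beside a count of 0 are 3 cells of the total, a simpler rule than the exact interval, whose upper bound here was 7.55%. The intervals and limits cover the counting of cells only, not differences between captures.

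Detection of robo3 had a wide gap, while robo2 levels were graded. The robo2 cell nearest below the minimum had 65 counts and the next 32, while the lowest cell above it had 153. For robo3 the highest cell below the minimum had 7 counts and the lowest above it 142. Of the cells below the minimum, 4 had no robo2 count and 22 had between 1 and 99, with a median of 0.179 CPM over these 26 cells, and 25 cells had at least 10 counts. For robo3, 20 cells had no count. A minimum of 10 counts in place of 100 would leave the detected robo3 cells as they are and add 4 robo2 cells.

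**Figure D1:**
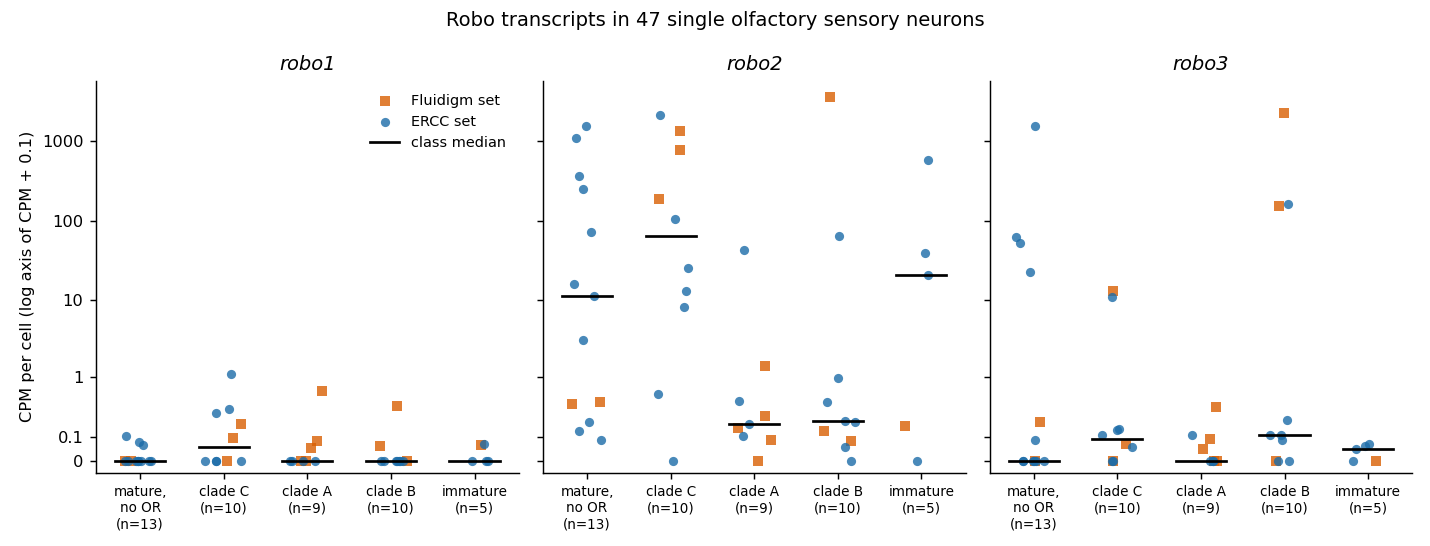
Each point is 1 of 47 single OSNs, with CPM per cell (log axis of CPM + 0.1) of robo1, robo2 and robo3 by class, squares for the Fluidigm set, circles for the ERCC set and a line at the class median. robo2 has its highest median in clade C (65.4 CPM), its single highest cell lies in clade B (3563 CPM), and no robo1 value passes 1.13 CPM.

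robo2 was found in most clade C neurons and in few of clades A and B. In the Fluidigm set the 3 clade C cells had 1319, 771 and 188 CPM, in the or129-1, or136-1 and or130-1 neuron. In the ERCC set the 7 clade C cells had 2098, 105, 25.5, 13.02, 8.18, 0.575 and 0 CPM. The lowest of these, with no robo2 count, was an or129-1 neuron, as was the second highest, so cells with the same predominant OR could differ widely. In total 8 of 10 clade C cells reached 100 counts (80.0%, exact interval 44.4 to 97.5%), 3 of 3 in the Fluidigm set and 5 of 7 in the ERCC set.

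In clade A, 1 of 9 cells reached 100 counts of robo2 (11.1%, 0.281 to 48.2%), an or111-4 neuron of the ERCC set at 43.6 CPM. The other 8 cells, 5 of them in the Fluidigm set, lay between 0 and 1.44 CPM. The class median of robo2 was 65.4 CPM in clade C and 0.184 CPM in clade A. The ranges met only through the or111-4 neuron and the 2 clade C cells at 0 and 0.575 CPM. The difference in the share of detected cells, 68.9 percentage points of clade C over clade A, was matched or passed by 1 of 5623 genes tested, robo2 itself (0.0178%), against a median of -2.22 points over all of these genes. The study named robo2 as a clade C receptor on these same cells, so this rank is not independent evidence of the direction. Apart from these counts, the study reported in situ hybridization, which it calls a qualitative measure. There robo2 overlapped more with a clade C subfamily of ORs than with a clade A subfamily. In robo2 mutants the study reported more misprojection of axons from a clade C OR line, but not from a clade A line. Neither experiment is part of the counts used here.

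In clade B, 2 of 10 cells reached 100 counts of robo2 (20%, 2.52 to 55.6%). These were an or115-5 neuron of the Fluidigm set with 3563 CPM, the highest robo2 level of all 47 cells, and an or115-12 neuron of the ERCC set with 65.3 CPM. They were the only 2 cells with an OR of the or115 subfamily, and the other 8 clade B cells, with ORs of 5 other subfamilies, lay between 0 and 0.996 CPM. The median was 65.4 CPM in clade C and 0.211 CPM in clade B. The mean was 453 CPM in clade C and 363 CPM in clade B. Each mean leaned on its highest cell, at 270.0 CPM in clade C without the or133-2 neuron of 2098 CPM and 7.49 CPM in clade B without the or115-5 neuron. A share of detected cells that exceeded clade B by as much as that of robo2 in clade C, 60 points, was found for 11 of 5623 genes (0.196%). This rank is not independent evidence either, since the study named robo2 on these same cells.

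**Figure D2:**
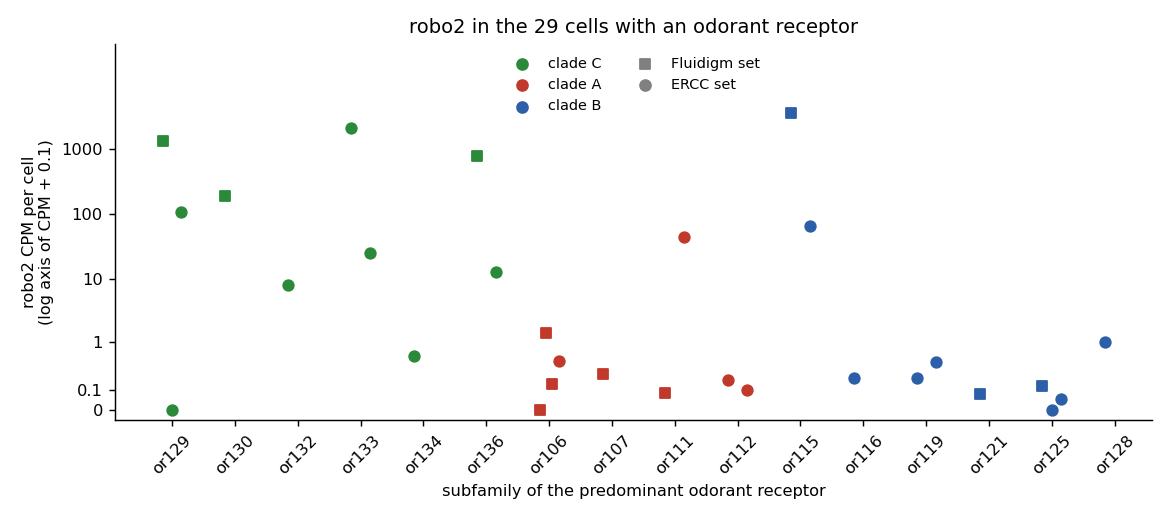
robo2 CPM per cell (log axis of CPM + 0.1) for the 29 cells with an OR, by the subfamily of the predominant OR and coloured by clade, squares for the Fluidigm set and circles for the ERCC set. Both or115 cells of clade B stand at 65.3 and 3563 CPM, while the 8 other clade B cells stay at or below 0.996 CPM.

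Within clade C the detected cells were spread over subfamilies. robo2 reached 100 counts in both or133 cells, both or136 cells, 2 of 3 or129 cells and the single or130 and or132 cells, and it stayed below in the single or134 cell. In clade A it reached 100 counts in 1 of 2 or111 cells and in none of 4 or106, 2 or112 and 1 or107 cells. The subfamilies hold 1 to 4 cells each, and cells of 1 subfamily are not replicates.

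To set the clades against each other, the counts of a class were added up separately for the Fluidigm and the ERCC cells, leaving 2 sums for every class. The robo2 level of the sums was 816 CPM (Fluidigm) and 276 CPM (ERCC) in clade C, against 0.384 and 12.3 CPM in clade A. Clade C was higher in both sets. The fitted log2 fold change was 7.07 ± 2.81 (standard error, SE). Its adjusted p was 0.876 in the quasi-likelihood test of edgeR (Benjamini-Hochberg over all genes tested), with an unadjusted p of 0.0119, rank 30 of 5623 genes. In this comparison edgeR called 0 of 5623 genes at an adjusted p of 0.05 (0.0%), and the unadjusted p of 182 (3.24%) was under 0.05. DESeq2 gave robo2 a log2 fold change of 7.60 and an adjusted p of 0.0229, among 892 genes it called (15.9%). The robo2 difference between clades C and A thus passed the threshold in 1 of the 2 tools. It kept its direction in each fit that left out 1 sum or 1 cell, between 5.56 and 11.08. The study picked robo2 from these same cells, so neither these p values nor the direction is independent support.

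Between clades C and B the robo2 sums did not point one way. They were 816 and 276 CPM in clade C, against 1120 and 8.89 CPM in clade B, with the lower value in clade C in the Fluidigm set and the higher in the ERCC set. The log2 fold change was -0.26 ± 2.16 (SE, adjusted p = 0.995 in edgeR), where 0 of 5623 genes were called (0.0%) and the unadjusted p of 194 was under 0.05 (3.45%). DESeq2, which called 982 genes (17.5%), gave robo2 an adjusted p of 0.969. Without the or115-5 neuron, a choice made after its value was seen, the log2 fold change was 7.40 (adjusted p = 0.871 in edgeR). One cell therefore moved both the size and the sign of this comparison.

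Between clades A and B robo2 had a log2 fold change of -7.32 ± 2.84 (SE, adjusted p = 0.847 in edgeR), from sums of 0.384 and 12.3 CPM in clade A, against 1120 and 8.89 CPM in clade B. edgeR called 1 gene here (0.0178%) while the unadjusted p of 196 was under 0.05 (3.49%). DESeq2 called 955 genes (17%), with an adjusted p of 0.0145 for robo2. Without the or115-5 neuron the log2 fold change was 0.31 (adjusted p = 1 in edgeR). Clades A and B therefore differed in robo2 through that neuron, and the other cells of both clades overlapped.

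**Figure D3:**
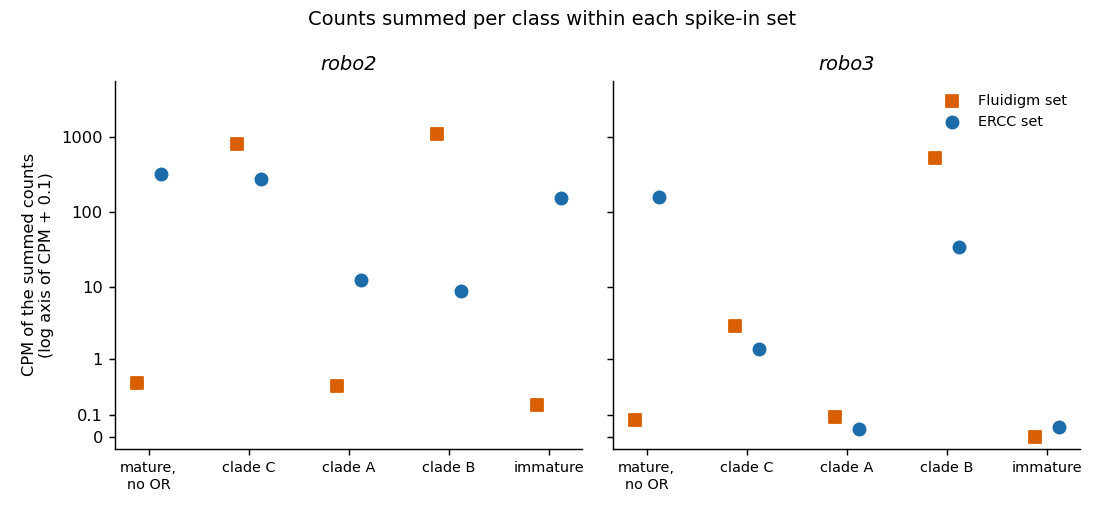
CPM of the summed counts (log axis of CPM + 0.1) of robo2 and robo3 per class, squares for the Fluidigm set and circles for the ERCC set. robo2 is higher in clade C than in clade A in both sets (816 and 276 CPM against 0.384 and 12.3 CPM), and robo3 is lower in clade A than in clade B in both sets (0.0872 and 0.0300 CPM against 526 and 34.6 CPM).

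robo3 was detected in fewer neurons, and its highest level among cells with an OR was in clade B. In clade B, 3 of 10 cells reached 100 counts (30%, 6.67 to 65.2%), an or121-2p neuron with 2213 CPM, an or125-5 neuron with 163 CPM and an or125-4 neuron with 152 CPM. Both spike-in sets contributed, the or125-5 neuron being of the ERCC set and both others of the Fluidigm set. The or125 subfamily had 3 cells, and the remaining one, an or125-4 neuron of the ERCC set, had no robo3 count. The other 7 clade B cells did not pass 0.221 CPM, so that the class fell into 2 parts. The clade B mean was 253 CPM, and 35.2 CPM without the or121-2p neuron.

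In clade C, 2 of 10 cells had robo3 at 100 counts or more (20%), an or136-1 neuron at 13.1 CPM and an or133-2 neuron at 10.96 CPM. Both levels were below all 3 of those in clade B. In clade A, 0 of 9 cells reached the minimum, which allows a share of up to 33.3% (exact upper bound 33.6%), and the highest cell had 7 counts (0.366 CPM). The median of robo3 was at most 0.108 CPM in every clade, since most cells of each clade were near 0.

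The robo3 sums were 2.95 CPM (Fluidigm) and 1.39 CPM (ERCC) in clade C, against 526 and 34.6 CPM in clade B. Clade C was lower in both sets, with a log2 fold change of -7.23 ± 4.84 (SE, adjusted p = 0.835 in edgeR, 0.0123 in DESeq2). Without the or121-2p neuron it was -5.00 (adjusted p = 0.940 in edgeR). In clade A the sums were 0.0872 and 0.0300 CPM, against the same 526 and 34.6 CPM in clade B, and the log2 fold change was -12.61 ± 5.94 (SE, adjusted p = 0.847 in edgeR, 1.7e-06 in DESeq2). That fold rests on a clade A level of a few counts and its size is not a firm one, and it was -10.37 without the or121-2p neuron (adjusted p = 0.840 in edgeR). Between clades C and A the log2 fold change of robo3 was 5.38 ± 4.44 (SE, adjusted p = 0.945 in edgeR, 0.0561 in DESeq2). These 3 comparisons share their sums, so they are not separate findings. The 30 point lower share of robo3 cells in clade A than in clade B was equalled or passed by 217 of 5623 genes (3.86%). Without its clade B cells robo3 would have failed the minimum of 3 cells with 100 counts and would not have been tested. A higher level in clade B was thus favoured in advance. Neither these p values nor this share is independent support for it.

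Cells with robo2 and cells with robo3 overlapped in part. Over all classes 16 cells had 100 counts of robo2 alone, 4 of robo3 alone, 5 of both and 22 of neither. In clade B, 2 cells had robo2 alone, 3 had robo3 alone and 0 of 10 had both. In clade C, 6 cells had robo2 alone and both robo3 cells also had robo2. The mature cells without OR included 3 with both receptors, 4 with robo2 alone and 1 with robo3 alone. Over the 29 cells with an OR, Pearson's r of log2(CPM + 1) between robo2 and robo3 was -0.07. It is given as a description because the cells come from only 2 spike-in sets.

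**Figure D4:**
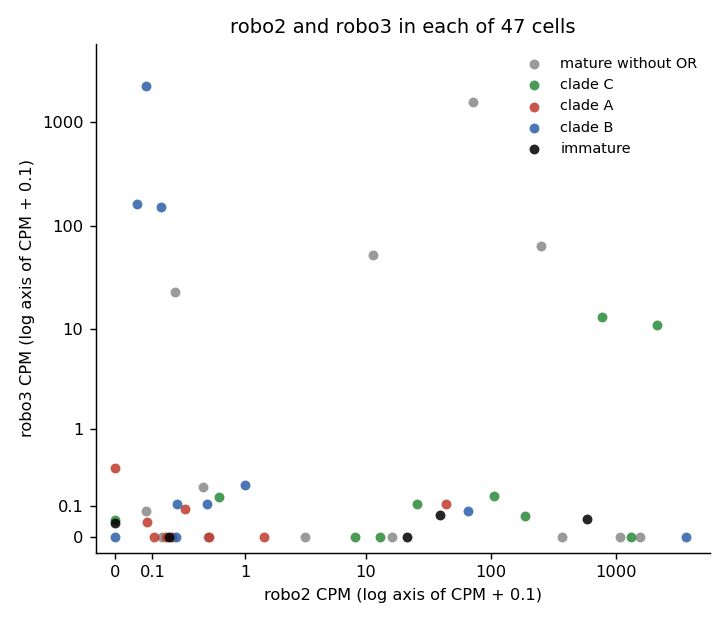
robo2 (x axis) against robo3 (y axis), both as CPM per cell on log axes of CPM + 0.1, for 47 cells coloured by class. In clade B 3 cells lie high on robo3 alone and 2 on robo2 alone, while the 2 clade C cells with robo3 (13.1 and 10.96 CPM) also have robo2 (771 and 2098 CPM).

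robo2 was also detected in mature cells without OR and in immature cells, some of which carried markers of other neurons. Of the 13 mature cells without OR, 7 reached 100 counts (53.8%, 25.1 to 80.8%), with 1529, 1078, 368, 248, 72.2, 16.3 and 11.4 CPM. Next came a cell at 3.17 CPM, and the remaining 5 cells were at or below 0.449 CPM. All 7 belonged to the ERCC set, where 11 of these cells were, and both cells of the Fluidigm set were below the minimum. Among the 29 cells with an OR the share was 37.9% (20.7 to 57.7%). Of the markers of microvillous OSNs (trpc2b, gnaia), only gnaia reached 100 counts in cells without OR. It did so in 2 of the 13, with a sum of both markers of up to 1240 CPM. Of the 4 glial markers only fabp7a reached 100 counts in these cells, in 2 of them, with a sum of up to 5318 CPM. Leaving out the 3 cells with either, an alternative added after the data were seen, 6 of 10 cells had robo2 and 3 of 10 had robo3 at 100 counts. The crypt neuron marker s100z, not used in this alternative, reached 100 counts in 4 of the 13 cells without OR. It also did so in 5 of 9 clade A, 3 of 10 clade B and 2 of 10 clade C cells. Microvillous markers reached 100 counts in 1 cell of each clade.

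Over the sums robo2 was at 0.434 CPM (Fluidigm) and 321 CPM (ERCC) in mature cells without OR, against 486 and 117 CPM in mature cells with OR. The 2 sets pointed in opposite directions, and the log2 fold change was -1.02 ± 3.65 (SE, adjusted p = 1 in edgeR), beside a median of -0.55 over all genes of this fit. With a block for the spike-in set it was -7.26 (adjusted p = 0.921 in edgeR). edgeR called 0 of 7886 genes in this comparison (0.0%), the unadjusted p of 80 was under 0.05 (1.01%), and DESeq2 called 520 (6.59%). For robo3, 4 of the 13 cells without OR reached 100 counts, at 1539, 63.5, 52.1 and 22.9 CPM, again all of the ERCC set. Its sums were 0.0686 and 158 CPM in mature cells without OR, against 147 and 12.7 CPM in mature cells with OR (log2 fold change -0.16 ± 4.17, SE, adjusted p = 1 in edgeR). Neither receptor was thus told apart between mature cells without and with OR, and the standard errors are wide.

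In mature cells with OR robo2 reached 486 and 117 CPM in the sums, against 0.173 CPM in the single immature cell of the Fluidigm set and 155 CPM in the immature cells of the ERCC set. The immature cells one by one had 586, 39.5, 21.2, 0.172 and 0 CPM, and 3 of 5 reached 100 counts (60.0%, 14.7 to 94.7%). This range lay within that of mature cells with OR. The terminal nerve marker gnrh3 reached 100 counts in 2 of the 5 immature cells, at up to 2680 CPM, and microvillous markers in 2, with a sum of up to 982.5 CPM. Of the 4 immature cells with one of these, 3 had robo2 at 100 counts, and the 1 cell with neither had robo2 below the minimum. Of the 2 cells with gnrh3, 1 had robo2 at 100 counts. The crypt neuron marker s100z reached 100 counts in 3 of the 5 immature cells, at up to 3127 CPM, while ora4, the other one listed, did so in none. The part of other cell types in these robo2 levels was not tested. The log2 fold change was 1.83 ± 3.73 (SE, adjusted p = 0.940 in edgeR), beside a median of 1.65 over all genes of this fit. With a block for the spike-in set it was 8.11 (adjusted p = 0.636 in edgeR). Here edgeR called 0 of 7886 genes (0.0%), the unadjusted p of 173 was under 0.05 (2.19%), and DESeq2 called 1262 (16%).

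robo3 was at 147 and 12.7 CPM in the sums of mature cells with OR, against 0 and 0.0368 CPM in those of immature cells. Of the immature cells 0 of 5 reached 100 counts, which allows a share of up to 60.0% (exact upper bound 52.2%), against 5 of 29 mature cells with OR (17.2%, 5.85 to 35.8%). The adjusted p was 0.618 in edgeR and 0.0342 in DESeq2. Since no immature cell had more than 1 count of robo3, the fitted fold depends on the settings of the fit and is no measure of size. A share near that of mature cells could not have been told from 0 with 5 cells.

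robo1 was close to absent from the single cells. It had 59 counts in all 47 cells combined. The highest cell by count was an or111-11 neuron of clade A with 16 counts (0.649 CPM), the highest by CPM an or133-2 neuron of clade C with 15 counts (1.13 CPM), and 32 cells had none. With so few counts it failed the filter on low counts and was not tested between classes. Without the filter its adjusted p in edgeR was between 0.889 and 1 in all 5 comparisons.

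The bulk libraries of CZ-projecting neurons gave another picture of robo1. It was at 55.8, 49.3 and 47.4 CPM in libraries 1, 2 and 3 (50.8 ± 4.43, SD, n = 3), from 148, 308 and 252 counts. The lowest of these was 42.1 times the highest single cell. In every bulk library 1912 genes reached the lowest bulk level of robo1 (47.4 CPM), not corrected for length. Of these, 17 (0.889%) had no cell above the highest robo1 cell, and 22 (1.15%) reached 100 counts in 0 cells. robo1 is among the 17 by construction, as its own values set both limits. Among the 17, named after their values were seen, were the keratins krt5, krt18 and krt97, the Notch target her4.1, the lipoprotein gene apoeb and six1b, a placodal transcription factor. The pools thus carried a small group of transcripts, robo1 with them, that did not pass 1.13 CPM in any captured cell. The methods of the study describe a different amplification for the pools, and its part in this was not tested.

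Of the markers of other cells, krt5 and the progenitor marker ascl1a stood above every single cell in all 3 pools as robo1 did. Many of the others also had high values in single cells. ascl1a was at 43.7, 5.12 and 10.7 CPM in bulk and at most at 0.0529 CPM in a single cell. Another progenitor marker, neurog1, was at 0, 3.20 and 3.95 CPM in bulk and at 0 CPM in every cell. The epidermal keratin krt5 was at 198, 374 and 193 CPM in the bulk libraries and at most at 0.539 CPM in a single cell. krt4 was at 1883, 3683 and 1253 CPM in bulk and reached 100 counts in 5 single cells, with up to 2106 CPM, and epcam and cdh1, which with both keratins make up the list for epidermis and supporting cells, reached 100 counts in 42 and 31 single cells. The summed level of that list was 2854, 5495 and 2467 CPM in bulk and 1.56 to 10420 CPM in the cells. Glial markers, almost all fabp7a, summed to 540, 305 and 1903 CPM in bulk with 2 of 4 genes at 100 counts in at least 1 library and mpz at 0, endothelial markers to 0.754, 0.320 and 32.9 CPM with 1 of 4, and globins to 45.3, 9.44 and 8238 CPM with 4 of 4. Progenitor markers summed to 212, 158 and 192 CPM, with 3 of 4 genes at 100 counts. In single cells the highest sums were 5318 CPM for glial markers, 848 CPM for globins, which reached 100 counts in 12 cells, and 414 CPM for progenitor markers. The median cell was at 0.106 CPM for glial markers and at 0 CPM for globins, progenitor and endothelial markers. It was at 1869 CPM for the epidermis list. Bulk sums thus lay above the median cell for each of these lists in all 3 libraries. They passed the highest cell only for the endothelial list in libraries 1 and 3 and the globins in library 3. For the ciliated OSN markers the bulk sums (1636, 1101 and 1409 CPM) lay below the median cell (3986 CPM). Immature OSN markers summed to 46.4, 331 and 355 CPM in bulk, against 0 CPM in the median cell. Crypt neuron markers summed to 624, 988 and 1544 CPM, against 0.440 CPM. Sums of microvillous and terminal nerve markers were also above the median cell. A pool mixes many cells, so staying below the highest cell does not show that pools and cells held alike amounts. The part of other cell types in the bulk robo1 level was not tested. In bulk more cells with a transcript and more of it per cell cannot be told apart.

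robo2 in bulk was at 75.4, 212 and 236 CPM (174 ± 86.3, SD, n = 3), with library 1 well below both others, whose mean was 224 CPM. The mean of the clade A cells was 5.14 CPM, and 0.336 CPM without the or111-4 neuron. robo3 was at 86.4, 37.9 and 84.4 CPM (69.6 ± 27.4), against a mean of 0.0669 CPM in the clade A cells. In all 3 libraries both receptors lay above the mean of the single cells that carry an OR of the same clade as or111-7. No test was made between pools and cells, since the methods of the study describe a different amplification for the pools, although the labels name the same kit for both.

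The OR counts of the pools bear on what the robo levels can be compared with. ORs made up 0.182, 0.113 and 0.244% of the counts. Clade A held 40.3, 50.4 and 47.5% of these OR counts, clade B 53.5, 33.95 and 38.9%, and clade C 6.24, 15.7 and 13.6%. or111-7 itself was at 98.0, 34.7 and 33.7 CPM. The transgene also expresses or111-7, so its counts and those of the native gene cannot be told apart, here or in the clade A share. The library with the lowest clade C share, library 1, also had the lowest robo2 level, and with 3 libraries no relation was tested.

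**Figure D5:**
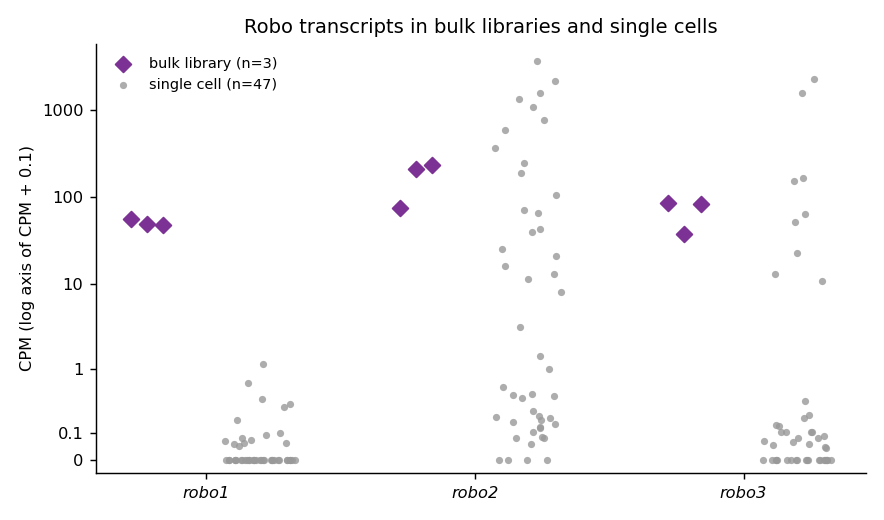
CPM (log axis of CPM + 0.1) of robo1, robo2 and robo3 in the 3 bulk libraries (diamonds) and in the 47 single cells (dots). The robo1 diamonds at 47.4 to 55.8 CPM stand above every single cell, while those of robo2 and robo3 lie within the range of the single cells.

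2 further rows belong to the family. robo4, an endothelial member in mammals, reached 100 counts in 3 cells, a clade B neuron at 154 CPM and 2 mature cells without OR, all of the ERCC set, while endothelial markers were near 0 in every cell. In bulk it was at 75.4 CPM in library 1 and at 0.480 and 1.504 CPM in libraries 2 and 3. A separate row named as the second of 2 ROBO3 copies reached 100 counts in 1 cell, the or125-5 neuron at 16.1 CPM. Reads shared between the 2 copies could have been split by the counting, so that the robo3 level of that neuron is the less certain. In the RefSeq annotation robo2 lies next to robo1 and robo3 next to robo4, with no other protein-coding gene between the members of either pair.

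Of the 4 Slit ligands, 3 were found in some neurons. slit1a reached 100 counts in 6 cells, the highest a clade C neuron at 617 CPM. slit2 reached it in 5 cells, at most at 452 CPM in an immature cell. slit1b reached it in 3 cells, all immature. Its sums were 0.0266 and 0.0368 CPM in mature cells with OR, against 808 and 40.0 CPM in immature cells (unadjusted p = 0.00777 and adjusted p = 0.618 in edgeR, adjusted p = 1.8e-10 in DESeq2). Only through these 3 cells did slit1b pass the filter on low counts. The filter thus set the direction, and these p values give it no support. slit3 stayed under 0.107 CPM in every cell and was at 0, 0.480 and 11.5 CPM in bulk. Of the 12 cells with a Slit gene at 100 counts, 6 also had robo2 at 100 counts.

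The list of the pathway held 32 names, with ligands, effectors that link Robo receptors to actin, and proteins that move or cleave the receptors. Of these, 28 were in the tables, 25 reached 100 counts in at least 1 cell and 17 in at least 3 cells. nell2a, the zebrafish counterpart of a Robo3 ligand of mammals, was found in 22 cells with up to 5120 CPM, 7 of 10 in clade C, 6 of 9 in clade A and 3 of 10 in clade B. Of the other ligands, nell2b reached 100 counts in 3 cells (at most 727 CPM), flrt3, whose product binds Robo1 in mammals, in 3 cells (at most 2111 CPM, in an immature cell), and the netrin gene ntn1a in 2 cells (at most 142 CPM), while ntn1b stayed under 0.398 CPM in every cell. adam10a, the counterpart of a protease that cleaves Robo1 in human cells, was found in 19 cells, and usp33, the counterpart of a deubiquitinase of human Robo1, in 15. No gene of the list passed an adjusted p of 0.05 in edgeR in any of the 5 comparisons, either way, of 11 tested between clades and 17 tested between stages. DESeq2 called nck2b higher in clade C than in clade A (adjusted p = 3.3e-09). Both clade A sums and the Fluidigm sum of clade C were at 0, and 1 of 10 clade C cells reached 100 counts. DESeq2 also called vaspb (0.0310) and adam10a (0.0294) lower in clade C than in clade B. For adam10a the 2 sets pointed in opposite directions. It was at 0.289 CPM (Fluidigm) and 13.2 CPM (ERCC) in clade C, against 782 and 0.335 CPM in clade B. It reached 100 counts in 4 clade C cells and 1 clade B cell. It called nck2a higher (0.0305) and nck2b lower (1.7e-12) in clade A than in clade B. In mature cells with OR against immature cells it called robo4 higher (4.1e-07), with both immature sums at 0, and slit1b and enah (0.0368) lower. The sets pointed in opposite directions for enah, at 0.925 CPM (Fluidigm) and 0.0331 CPM (ERCC) in mature cells with OR, against 0 and 142 CPM in immature cells. Without the class in which it was called higher, each of these genes but adam10a would have failed the filter on low counts. Between mature cells without and with OR it called 0 genes of the list. Over all genes tested DESeq2 called 15.9% (C with A), 17.5% (C with B) and 17% (A with B). It called 16% between mature cells with OR and immature cells, and 6.59% between mature cells without and with OR. Whether the list held more calls than these shares was not tested, so its calls are not a result about the pathway. The list's median log2 fold change was -1.76 between clades C and A, -0.65 between C and B and 0.21 between A and B, beside 0.05, 0.11 and 0.01 over all genes tested. It was 0.09 between mature cells with OR and immature cells and -1.99 between mature cells without and with OR, beside 1.65 and -0.55 over all genes.

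The genes most like robo2 over the 29 cells with an OR were si:dkey-199m13.9 (Pearson's r = 0.666 of log2(CPM + 1)), the kinase gene araf (0.662), an uncharacterised gene (0.661), the sphingomyelinase gene smpd3 (0.659) and snap25b (0.657), which encodes a protein of synaptic vesicle fusion. snap25b reached 100 counts in 8 of these cells, 6 of them in clade C, 2 in clade B and none in clade A, and 7 of the 8 also had robo2. The other 4 genes were found in 3 to 5 cells each. These are the highest of 5622 correlations over cells from only 2 spike-in sets, and they stand as a description.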

How the data were processed

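Raw gene counts of 47 single cells and 3 bulk libraries were used as deposited; per the labels the authors demultiplexed with CASAVA 1.8.2, aligned with STAR to GRCz10 and counted with HTSeq, while the methods text names another counter. Levels are CPM of all gene counts and are not compared between genes, as transcript lengths were not used. Cells took their spike-in set from the labels and their class from OR, gng8 and gap43 counts. Each spike-in set was treated as 1 of 2 captures, although the labels name no captures. Because cells are not replicates, counts were summed per class and set, and the 2 sums per class measure only the spread between spike-in sets. The test was the quasi-likelihood test of edgeR 4.0.16 (R 4.3.3) after TMM scaling, on 6 sums per fit and on genes that reached 100 counts in 3 or more cells, and DESeq2 1.42.0 was the alternative. Other alternatives were size factors, other filters, the set as a block, and leaving out each sum or cell. Intervals of shares are exact binomial at 95%, and limits beside a count of 0 are 3 cells of the total. The genes named were the 3 members, the family and ligand rows, any listed gene past the threshold in either tool, the 3 listed genes found in the most cells, and the 5 most like robo2; 6 genes high in bulk were named after their values were seen. The members and lists were chosen with earlier results of these data known. RefSeq neighbours come from assembly GRCz12tu, and no coordinates or sequences are given. The fits were tested on simulated counts. No pair of libraries held identical values.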

Additional observations from a re-analysis of the deposited data

Results flagged for a closer look

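In 8 of 12 combinations of class and gene, 1 cell lay far from the other cells of its class. The rule's rate of about 1 in 20 by chance does not hold for counts like these. Where most cells of a class are near 0, almost any cell with counts stands apart. For robo2 these were the or111-4 neuron of clade A (43.6 CPM), the or115-5 neuron of clade B (3563 CPM) and an immature cell (586 CPM). For robo3 they were an or106-8 neuron of clade A (0.366 CPM) and the or121-2p neuron of clade B (2213 CPM). For robo1 they were the or111-11 neuron of clade A (0.649 CPM), the or121-2p neuron of clade B (0.389 CPM) and an or133-2 neuron of clade C (1.13 CPM), all of 16 counts or fewer. Classes with more than 10 cells were not examined in this way.

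The log2 difference of the summed CPM + 1 had opposite signs in the Fluidigm and ERCC sets for 7 results, and the difference between sets was not tested. For robo2 it was -0.46 and 4.81 between clades C and B, -9.66 and 0.42 between clades A and B, 8.70 and -0.40 between mature cells with OR and immature cells, and -8.41 and 1.45 between mature cells without and with OR. For robo3 it was -7.11 and 3.54 between mature cells without and with OR. For robo1, whose sums were at most 0.228 CPM, it was -0.11 and 0.30 between clades C and A and -0.017 and 0.30 between clades C and B. The Fluidigm set had 1 immature cell and 2 mature cells without OR.

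The bulk libraries, which enter no comparison between classes, held all 3 receptors, with lowest levels of 47.4 CPM for robo1, 75.4 CPM for robo2 and 37.9 CPM for robo3.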

How the results depend on the processing

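With 2 sums per class, 1 deep cell can carry a sum. Counts of genes called depended most on the tool. DESeq2 called 892, 982, 955, 1262 and 520 genes in the comparisons C with A, C with B, A with B, mature with OR with immature, and mature without with mature with OR, where edgeR called 0, 0, 1, 0 and 0. A filter of 10 counts gave 1, 2 and 6 genes in the 3 clade comparisons, the spike-in set as a replicate block 1 gene (C with A) and 2 genes (A with B), and size factors of the DESeq2 type or no filter 0 genes (A with B). Robo calls that only DESeq2 made had log2 fold changes of 7.60 (robo2, C with A), -7.41 (robo3, C with B), -8.02 and -13.55 (robo2 and robo3, A with B) and 7.96 (robo3, mature with OR with immature).

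Signs turned in 4 results, of which robo2 between A and B, past the threshold in DESeq2, turned without the or115-5 neuron (0.31). robo2 between C and B was 0.41 with the block and 7.40 without the or115-5 neuron, and robo3 between mature cells without and with OR was 0.66 in DESeq2 and with its size factors. Leaving out 1 sum or 1 cell in turn, the log2 fold change of robo2 ranged from 5.56 to 11.08 (C with A), -1.77 to 7.40 (C with B), -11.33 to 0.31 (A with B), 0.18 to 8.04 (mature with OR with immature) and -8.46 to 0.64 (without with with OR). That of robo3 ranged from 3.31 to 6.54, -9.30 to -3.55, -13.78 to -8.94, 8.58 to 16.60 and -9.23 to 2.82 in the same comparisons, and the values against immature cells are neither sizes nor bounds, as those sums had 0 and 0.0368 CPM. Genes called ranged from 0 to 1, and from 0 to 2 between A and B. Bulk means ranged from 48.3 to 52.5 CPM for robo1, 143.5 to 223.5 for robo2 and 61.2 to 85.4 for robo3. The cause of these changes was not tested, except that leaving out the or115-5 neuron removes the sum's largest cell. The deviations of the Fluidigm sums from their class means, in log2(CPM + 1), were at most weakly correlated between classes. These correlations were 0.0376 to 0.0624 in the clade fit and 0.0449 to 0.143 in the stage fit. The 5 genes most like robo2 shared 0 genes with those by Spearman's rho, or with those of either set alone.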
